A study of Mus musculus with 7 samples.

Results

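The genes described here encode the proteins that show peptides to T cells: the class I heavy chains H2-K1 and H2-D1 with their light chain B2m, the class I peptide supply proteins Tap1, Tap2 and Tapbp, and the class II chains H2-Aa, H2-Ab1 and H2-Eb1 with the invariant chain Cd74. These 10 genes were picked by symbol from the 16760 genes of the deposited table, and all 10 were found there, each once. They were measured by RNA sequencing in 3 libraries from mice with a deletion in chromosome band 5G2 (5G2del) and 4 libraries from wild-type mice (WT), both of strain C57/B6. Band 5G2 is the mouse counterpart of a human 7q22 segment that is recurrently lost in myeloid malignancies. The cells were CD150-negative and are labelled HSC, for haematopoietic stem cell. The size and zygosity of the deletion, the age of the mice and whether libraries came from separate animals are not stated by the labels. The p-values below therefore reflect library-to-library spread, some of it possibly technical. Libraries carry a letter within their group (5G2del-A to 5G2del-C, WT-A to WT-D), a name that is not tied to the numbered samples.

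MHC (major histocompatibility complex) class I molecules sit on nearly all nucleated cells and carry peptides cut by the proteasome in the cytosol. The TAP1-TAP2 transporter pumps these peptides into the endoplasmic reticulum, where tapasin, the product of Tapbp, holds the empty class I molecule beside the transporter until it is loaded. Class II molecules carry peptides from endosomes, which they reach bound to the invariant chain, and are most abundant on B cells, dendritic cells and macrophages. Interferon gamma raises both classes, through the transactivators NLRC5 for class I and CIITA for class II. Mice of the H2-b haplotype, that of C57BL/6, make no class II E alpha chain, so that the E beta chain of H2-Eb1 has no partner. Under GENCODE M21 (mm10), 8 of the 10 genes lie on chromosome 17, B2m lies on chromosome 2 and Cd74 on chromosome 18, so none lies on chromosome 5.

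Values are log2 CPM, the authors' scale of log2 counts relative to a library size, which ran from 41220903 to 42935610 in 5G2del and from 34865420 to 55716549 in WT. It was smaller than the summed counts below in 5G2del-C and WT-C and larger in the other libraries, so the scale raises these 2 libraries relative to the others. The summed expected counts of a library ran from 38741356 to 47664360 in 5G2del and from 37930174 to 52194274 in WT (exact permutation test over 35 splits, two-sided, p = 0.543). Each member rested on at least 406 expected counts in every library and B2m on up to 146410, far above a floor of 3 counts. The labelled cell type was checked against 13 stem and progenitor genes, all in the table: Hlf, the most abundant, averaged 9.11 ± 0.16 (SD) in 5G2del and 9.24 ± 0.25 in WT on this scale. Kit, which encodes the receptor of stem cell factor, lay at 8.18 to 8.23 in 5G2del and 7.98 to 8.22 in WT. Flt3, another gene of this list, lay at 7.51 to 8.21 in 5G2del and 7.54 to 8.50 in WT. Whether the cells were stem cells or later progenitors was not tested. Slamf1, which encodes CD150, was at 0.40 to 0.65 log2 CPM in 5G2del and -2.22 to -0.26 in WT, without overlap. It rested on 55 to 66 expected counts in 5G2del and 7 to 45 in WT. Cd48, a progenitor marker of this list, was the 1 of 13 with an unadjusted limma p under 0.05 (0.99 ± 0.42 on the log2 scale). Of all genes in the table, 3.91% had such a p, and 5.70% had groups without overlap. As a check of the genotype labels, Cux1 of the deleted band averaged 7.29 ± 0.64 in 5G2del and 8.41 ± 0.18 in WT on the log2 CPM scale, without overlap between the libraries. WT-B stood apart from the other libraries, with 1104 listed genes at 0 counts against 83 to 492 elsewhere.

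The members differed widely in abundance. Per kilobase of annotated exon, which allows genes to be set side by side, B2m had a mean level of 2912 CPM per kilobase over the 7 libraries, H2-K1 of 224 and H2-D1 of 152. The class II chains and the invariant chain lay at about the level of the transporter genes: H2-Ab1 at 17.7 CPM per kilobase, Cd74 at 16.7, Tapbp at 14.98, H2-Aa at 13.8, Tap1 at 11.9, H2-Eb1 at 7.05 and Tap2 at 5.91. In bulk RNA such a level cannot tell fewer cells that express a gene from less RNA per cell. These exon lengths cover all annotated transcripts of a gene, so a gene with long minor transcripts is understated. Class II transcripts were thus present in every library, at a level far below the class I chains.

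In the comparison of 5G2del with WT, 0 of the 10 members passed an adjusted p of 0.05 in limma-trend, which lets the prior variance follow the mean level (Benjamini-Hochberg over all genes), against a background of 0.00% of the 16760 genes. At an unadjusted p under 0.05 there was 1 member, Tap1, against a background of 3.91% of genes, of which 2.24% were lower in 5G2del, as Tap1 was, and 1.68% were higher. The groups did not overlap in 1 member, again Tap1, against a background of 5.70%. With libraries centred on their median, 0 members were without overlap. In mean, 2 members were higher in 5G2del (53.3% of all genes) and 8 were lower (46.7%), with a median log2 fold change of -0.06 over the members and 0.03 over all genes. The class I chains had a median of -0.04, the peptide supply genes of -0.00058 and the class II genes of -0.09. The count of members higher in 5G2del ran from 1 without WT-A to 8 without WT-D, with 6 without WT-B, and 7 of the 10 members changed sign when 1 library was left out.

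**Figure D1:**
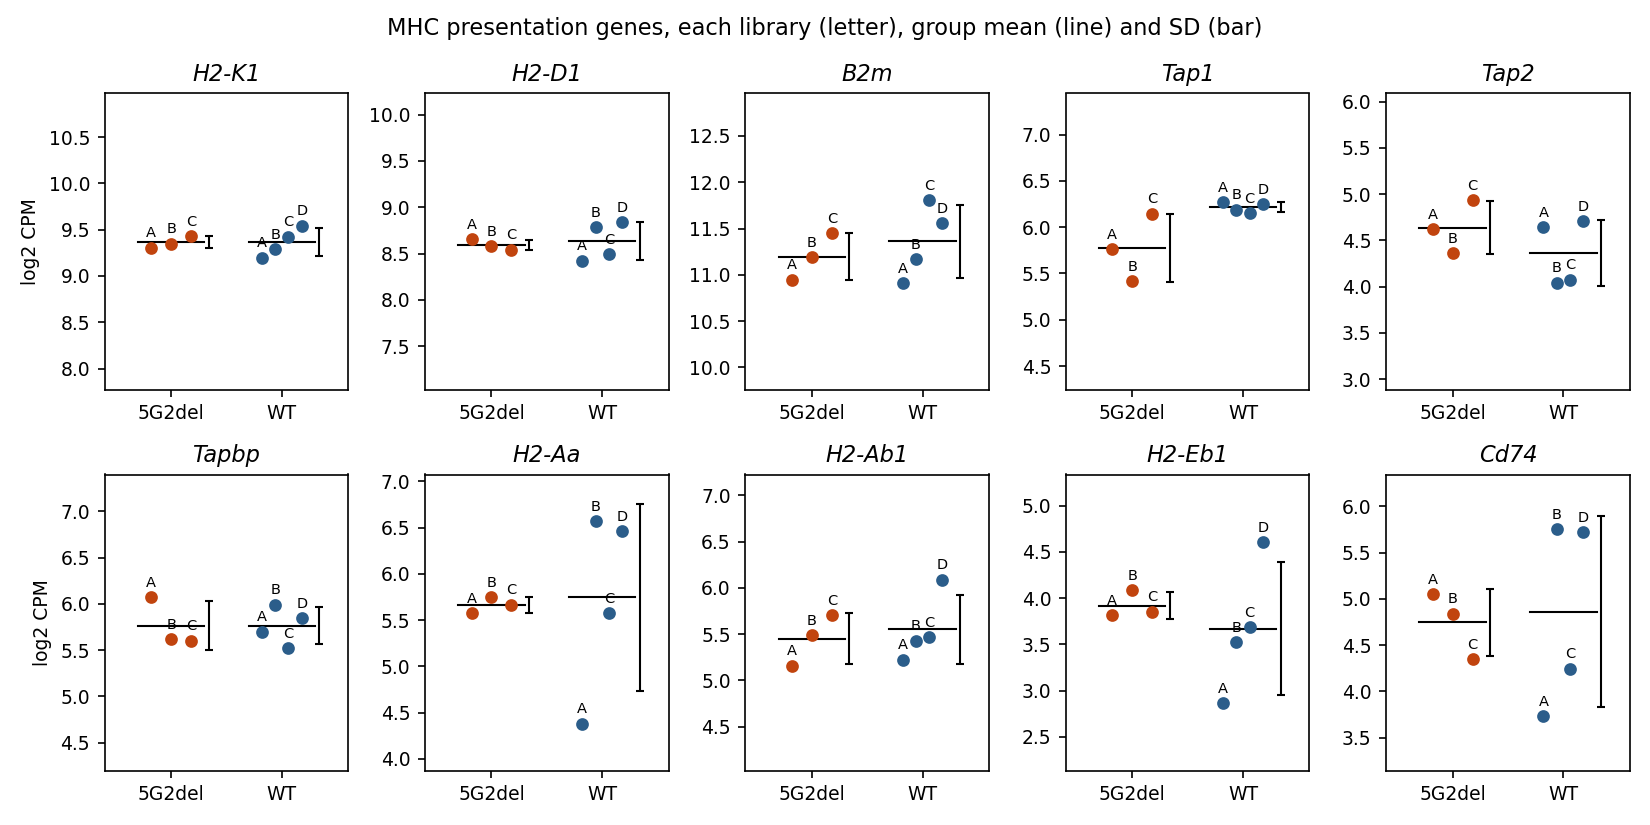
Log2 CPM of the 10 MHC presentation genes in each library (points, lettered), with the group mean (line) and SD (bar, n = 3 for 5G2del and n = 4 for WT); each panel spans the same number of log2 units. Tap1 is the gene whose groups do not overlap on this scale, though they do with median centring, and H2-Aa and Cd74 spread over about 2 log2 units in WT.

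**Figure D2:**
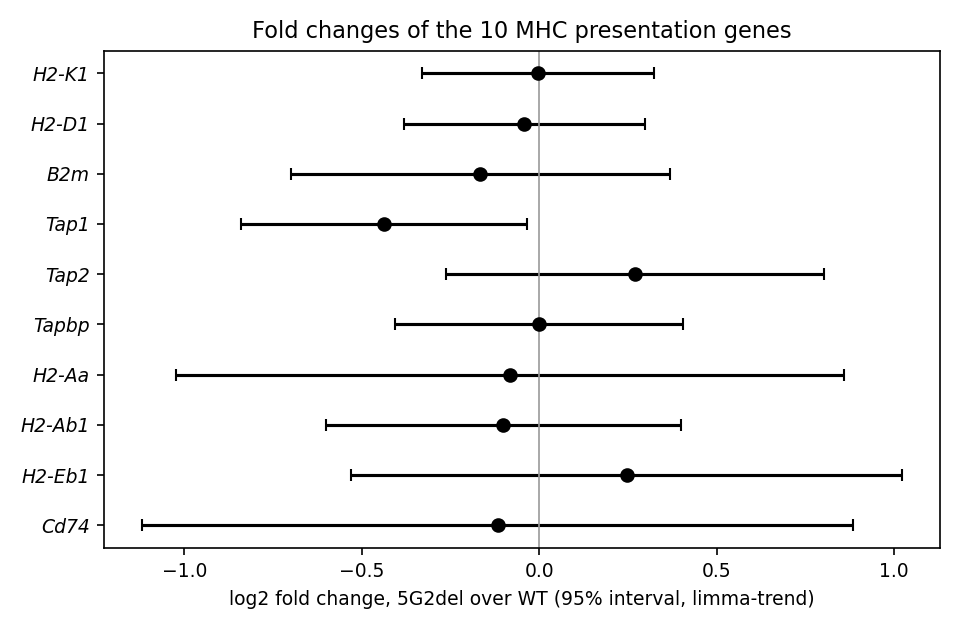
Log2 fold change of each member, 5G2del over WT (points), with its 95% interval from limma-trend (bars). The interval of Tap1, from -0.84 to -0.035, lies below 0, and those of the other 9 members include 0.

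The promoters of the class I chain genes are shown first, followed by those of H2-Aa and Tap1. Promoter sequence was available for 7 of the 10 members in RefSeq (GRCm38.p6), and the 200 bases before the start site were searched on both strands for CCAAT (the core bound by NF-Y, the Y box of MHC promoters), TGACG (a cyclic AMP response element half-site, as in the X2 box), AANNGAAA (the core bound by interferon regulatory factors) and for the H2TF1 kappa B site of class I promoters, whose letters are the first run of capitals in the H2-K1 sequence. Below, capitals mark these matches, together with those of TTCNNNGAA, the gamma-activated sequence, of which there was 0. The sequences are those of H2-K1 (chr17:34000348-34000547, minus strand), H2-D1 (chr17:35262894-35263093, plus strand), B2m (chr2:122147487-122147686, plus strand), H2-Aa (chr17:34287824-34288023, minus strand) and Tap1 (chr17:34187356-34187555, plus strand), each 5′ to 3′ in the direction of its gene.
H2-K1: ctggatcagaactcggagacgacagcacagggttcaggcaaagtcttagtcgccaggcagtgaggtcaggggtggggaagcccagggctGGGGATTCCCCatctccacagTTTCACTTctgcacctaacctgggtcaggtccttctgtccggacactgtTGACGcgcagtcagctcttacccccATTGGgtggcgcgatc
H2-D1: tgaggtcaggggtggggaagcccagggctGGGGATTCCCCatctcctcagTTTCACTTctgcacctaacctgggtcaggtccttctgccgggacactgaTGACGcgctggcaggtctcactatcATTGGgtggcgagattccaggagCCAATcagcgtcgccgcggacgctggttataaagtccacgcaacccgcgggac
B2m: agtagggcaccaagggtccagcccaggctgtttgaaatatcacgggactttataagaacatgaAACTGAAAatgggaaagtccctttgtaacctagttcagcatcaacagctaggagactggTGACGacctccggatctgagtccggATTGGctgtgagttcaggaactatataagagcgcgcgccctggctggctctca
H2-Aa: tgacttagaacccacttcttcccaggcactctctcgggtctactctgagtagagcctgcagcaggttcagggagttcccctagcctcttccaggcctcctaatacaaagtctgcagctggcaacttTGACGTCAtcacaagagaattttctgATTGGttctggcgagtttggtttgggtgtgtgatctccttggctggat
Tap1: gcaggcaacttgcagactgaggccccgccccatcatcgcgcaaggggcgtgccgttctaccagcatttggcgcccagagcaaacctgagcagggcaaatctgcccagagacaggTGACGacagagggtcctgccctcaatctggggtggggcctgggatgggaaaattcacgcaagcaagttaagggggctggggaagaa

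H2-K1, H2-D1, B2m and H2-Aa shared an arrangement in which TGACG was followed by ATTGG, the reverse complement of CCAAT, with 20 bases between them in the 3 class I chain genes and 21 in H2-Aa. A pair with either spacing was found in 39 of 27025 RefSeq promoter windows of the same length, or 0.144%. The spacings searched are those that these genes hold, so the share is a description, and whether the pair marks them was not tested. Tap1 had TGACG but no CCAAT in its window, and Tapbp and H2-Eb1, not printed, had CCAAT but no TGACG. H2-K1 and H2-D1 each also held the H2TF1 site, present in 6 of the 27025 windows (0.0222%). The core AANNGAAA stood in H2-K1, H2-D1 and B2m, and in 17.2% of all windows, while CCAAT alone was present in 30.02%, TGACG in 15.8% and TTCNNNGAA in 5.62%. The promoters of H2-K1 and H2-D1 aligned over 139 columns with 91.4% identity. A match is a string of letters and does not show that a factor binds there.

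The heavy chains had the smallest spans over the 7 libraries among the members. H2-K1 read 9.30, 9.35 and 9.43 log2 CPM in 5G2del-A to 5G2del-C, and 9.20, 9.29, 9.42 and 9.54 in WT-A to WT-D. The groups overlapped throughout, and the 7 libraries spanned 0.34 log2 units, where the 333 genes nearest in mean level had a median span of 0.75. H2-K1 averaged 9.36 log2 CPM in 5G2del, with an SD of 0.07 over 3 libraries, and 9.36 in WT, with an SD of 0.15 over 4, and its log2 fold change was -0.0028 ± 0.15 (SE) with a 95% interval of -0.33 to 0.32 (limma adjusted p = 0.999). H2-K1 thus lay between 0.796 and 1.25 times its WT level by this interval.

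H2-D1, the second classical heavy chain gene of this haplotype, was at 8.65, 8.58 and 8.54 log2 CPM in the 5G2del libraries, against 8.42, 8.78, 8.49 and 8.84 in the WT libraries. All 3 5G2del values lay inside the WT range, and the log2 fold change was -0.04 ± 0.15 with an interval of -0.38 to 0.30 (limma adjusted p = 0.990). It was 0.0088 without WT-B and 0.027 without WT-D. In log2 CPM, H2-K1 exceeded H2-D1 by 0.77 ± 0.12 in 5G2del and 0.73 ± 0.18 in WT. RSEM divides reads among similar genes, and class I genes resemble each other: of all 100-base windows of H2-K1 transcripts, 0.957% occurred in transcripts of other genes, mostly H2-Q10, H2-Q5 and H2-Q7, and of H2-D1 3.59%, mostly H2-Q1, Gm7030 and H2-T23. For B2m, both Tap genes, the class II genes and Cd74 the share was 0%, and for Tapbp 0.0775%.

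B2m, the light chain without which class I heavy chains do not reach the surface, ranked at place 7 of all genes by mean log2 CPM. It measured 10.95, 11.19 and 11.45 log2 CPM in 5G2del, against 10.91, 11.17, 11.81 and 11.56 in WT. WT-C and WT-D lay above all 5G2del libraries and WT-A below them. Its log2 fold change of -0.17 ± 0.24 had an interval of -0.70 to 0.37 (limma adjusted p = 0.989), and was -0.02 without WT-C and -0.32 without WT-A.

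Class I heavy chain genes beyond the 2 classical ones gave a similar picture. Of 25 listed nonclassical and related genes 16 were in the table, 6 higher and 10 lower in 5G2del, and their median log2 fold change was -0.03. Of these, 0 passed the adjusted threshold and 2 had an unadjusted limma p under 0.05, against 3.91% of all genes (2.24% lower). Both were lower in 5G2del: Mr1, which presents vitamin B metabolites to MAIT cells, was at 3.72, 3.48 and 3.99 log2 CPM in 5G2del, against 4.29, 4.36, 4.72 and 4.00 in WT, a log2 fold change of -0.61 ± 0.24. H2-T24 was at 1.57, 2.42 and 1.24 in 5G2del, against 3.13, 1.75, 2.86 and 3.36 in WT, a log2 fold change of -1.03 ± 0.46. The groups did not overlap for Mr1, with 5G2del-C just under WT-D, and overlapped for H2-T24. Over all genes, 5.70% had groups without overlap. With 1 library left out, between 0 and 4 genes of this list had an unadjusted limma p under 0.05. The unadjusted p of Mr1 was 0.05 or above without 5G2del-A, 5G2del-B or WT-C. That of H2-T24 was so without 5G2del-A, 5G2del-C, WT-A, WT-C or WT-D, and in 3 other settings (without the trend, log2(CPM + 1) and the voom fit). Without WT-B the groups of H2-T24 did not overlap, and its log2 fold change was -1.37. Reads of the H2-Q and H2-T genes can be shared among near-identical copies, so these values are uncertain.

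Tap1, the first chain of the peptide transporter, was the member with the largest difference relative to its error. It read 5.76, 5.42 and 6.15 log2 CPM in 5G2del-A to 5G2del-C, against 6.27, 6.19, 6.15 and 6.25 in WT-A to WT-D. The WT libraries lay within 0.12 log2 units of each other, and all 5G2del libraries lay below them, although 5G2del-C missed the lowest of them, WT-C, by 0.0039. The groups overlapped when libraries were centred on their median. The means were 5.78 ± 0.37 in 5G2del and 6.21 ± 0.05 in WT, and the log2 fold change was -0.44 ± 0.18 with an interval of -0.84 to -0.035, or 0.738 times the WT level (limma unadjusted p = 0.0356, adjusted p = 0.989). The adjusted p ran from 0.833 to 1.00 over all alternatives, and the fold change was -0.26 without 5G2del-B and -0.62 without 5G2del-C. The unadjusted p was 0.05 or above without 5G2del-A, 5G2del-B, WT-A or WT-D, and without the trend.

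Tap2, the second chain of the transporter, lay the other way in mean, at 4.62, 4.36 and 4.93 log2 CPM in 5G2del and 4.64, 4.04, 4.08 and 4.70 in WT. Its groups overlapped, and the log2 fold change was 0.27 ± 0.24 with an interval of -0.26 to 0.80 (limma adjusted p = 0.989), and 0.12 without 5G2del-C. Within each library, Tap1 exceeded Tap2 by 1.14, 1.06 and 1.22 in log2 CPM in 5G2del, against 1.63, 2.15, 2.07 and 1.54 in WT. The balance of both chains did not overlap between the groups, with a mean of 1.14 ± 0.08 in 5G2del and 1.85 ± 0.31 in WT. A scaling factor per library cancels in this difference. It was picked out after the values were seen and was not tested.

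Tapbp was at 6.07, 5.62 and 5.60 log2 CPM in 5G2del, against 5.70, 5.99, 5.52 and 5.85 in WT. Its means were 5.76 ± 0.27 in 5G2del and 5.76 ± 0.20 in WT, and the log2 fold change of -0.00058 ± 0.18 had an interval of -0.41 to 0.41 (limma adjusted p = 1.00). It was 0.075 without WT-B and -0.16 without 5G2del-A. 5G2del-A was the highest of all 7 libraries and the other two 5G2del libraries were among the lowest.

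Tap1 and Tap2 lie beside the immunoproteasome genes Psmb8 and Psmb9 in the class II region, in the order Psmb9, Tap1, Psmb8, Tap2 along chromosome 17. Psmb9 and Tap1 are divergent genes whose RefSeq start sites are 226 bases apart, so the Tap1 promoter printed above lies between them, and their GENCODE models overlap by 212 bases on opposite strands. Psmb9 was at 5.83, 6.12 and 6.48 log2 CPM in 5G2del, against 5.67, 5.88, 6.22 and 6.59 in WT, a log2 fold change of 0.05 ± 0.24 whose sign turned without 5G2del-C, WT-A or WT-B. Psmb8 was at 6.42, 6.72 and 6.89 in 5G2del, against 6.12, 6.04, 6.44 and 6.91 in WT, a log2 fold change of 0.30 ± 0.22, and 0.19 without 5G2del-C. Of these 4 neighbouring genes, Tap1 alone had non-overlapping groups, and 0 had with median centring. Whether its fold change differed from that of Psmb9 was not tested. Strand is not stated for these counts, so reads in the overlap of Psmb9 and Tap1 cannot be told apart.

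**Figure D3:**
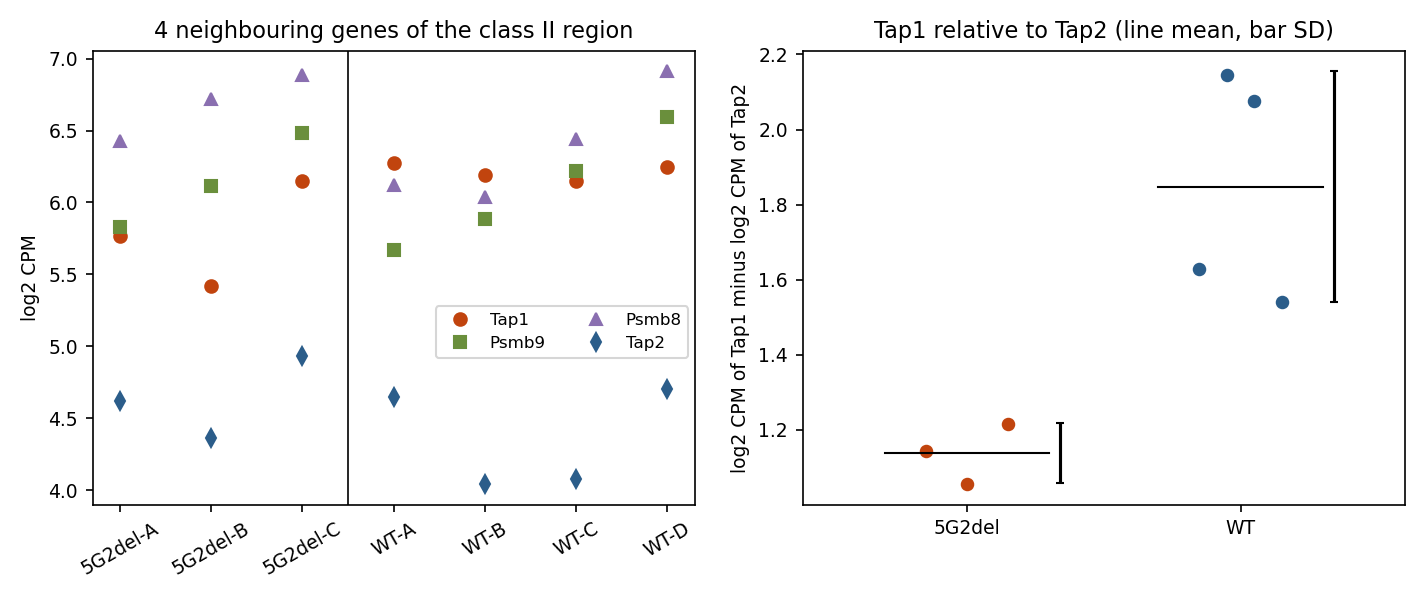
Left, log2 CPM of Tap1, Psmb9, Psmb8 and Tap2 in each library, 5G2del left of the vertical line and WT right of it; right, log2 CPM of Tap1 minus that of Tap2 in each library with the group mean (line) and SD (bar). The difference runs from 1.06 to 1.22 in 5G2del and from 1.54 to 2.15 in WT.

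The wider machinery of class I peptide supply was higher in mean in 10 of 15 listed genes (53.3% of all genes) and lower in 5 (3 without 5G2del-A). The median log2 fold change was 0.13, and 0 of them passed the adjusted threshold or an unadjusted p under 0.05. With 1 library left out, 0 to 2 had an unadjusted limma p under 0.05, and 1 had with the voom fit. With all 7 libraries, 3.91% of all genes had such a p. The list holds the 3 immunoproteasome subunits, the PA28 activator, the trimming peptidase Erap1 and the chaperones calreticulin (Calr), calnexin (Canx) and Pdia3.

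The class II genes varied most between libraries, and did so within WT. H2-Aa, the A alpha chain, was at 5.57, 5.75 and 5.67 log2 CPM in 5G2del, against 4.38, 6.57, 5.57 and 6.46 in WT. The 5G2del libraries lay within 0.17 log2 units, and inside a WT range of 2.19, where the 500 genes nearest in mean level had a median span of 0.69 over the 7 libraries. H2-Aa averaged 5.66 log2 CPM in 5G2del, with an SD of 0.09, and 5.75 in WT, with an SD of 1.01, and the log2 fold change was -0.08 ± 0.43 with an interval of -1.02 to 0.86 (limma adjusted p = 0.992). It was -0.54 without WT-A, 0.19 without WT-B and 0.16 without WT-D.

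Cd74, whose product guards the class II groove until the endosome, was at 5.05, 4.84 and 4.35 log2 CPM in 5G2del, against 3.73, 5.75, 4.24 and 5.72 in WT. As with H2-Aa, WT-A was the lowest and WT-B and WT-D were the highest of all 7 libraries. The log2 fold change was -0.12 ± 0.46 with an interval of -1.12 to 0.89 (limma adjusted p = 0.990), and -0.49 without WT-A, 0.18 without WT-B and 0.17 without WT-D. By its interval, Cd74 lay between 0.460 and 1.85 times its WT level.

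H2-Ab1, the A beta chain that pairs with H2-Aa, was steadier, at 5.16, 5.49 and 5.71 log2 CPM in 5G2del and 5.22, 5.43, 5.47 and 6.09 in WT. Its log2 fold change was -0.10 ± 0.23 with an interval of -0.60 to 0.40 (limma adjusted p = 0.989), and 0.08 without WT-D. H2-Aa minus H2-Ab1, in log2 CPM, was 0.41, 0.26 and -0.04 in 5G2del, against -0.84, 1.14, 0.11 and 0.37 in WT. The alpha to beta balance of this chain pair thus moved by 1.98 log2 units between WT-A and WT-B, and by 0.45 within 5G2del.

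H2-Eb1, the E beta chain, was at 3.82, 4.08 and 3.85 log2 CPM in 5G2del, against 2.87, 3.52, 3.69 and 4.60 in WT. WT-A was the lowest and WT-D the highest library, with all 5G2del libraries between WT-C and WT-D. Its log2 fold change was 0.25 ± 0.35 with an interval of -0.53 to 1.02 (limma adjusted p = 0.989), -0.02 without WT-A and 0.56 without WT-D. H2-Ea, the gene of the alpha partner, was looked for and was not among the measured genes under that symbol.

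**Figure D4:**
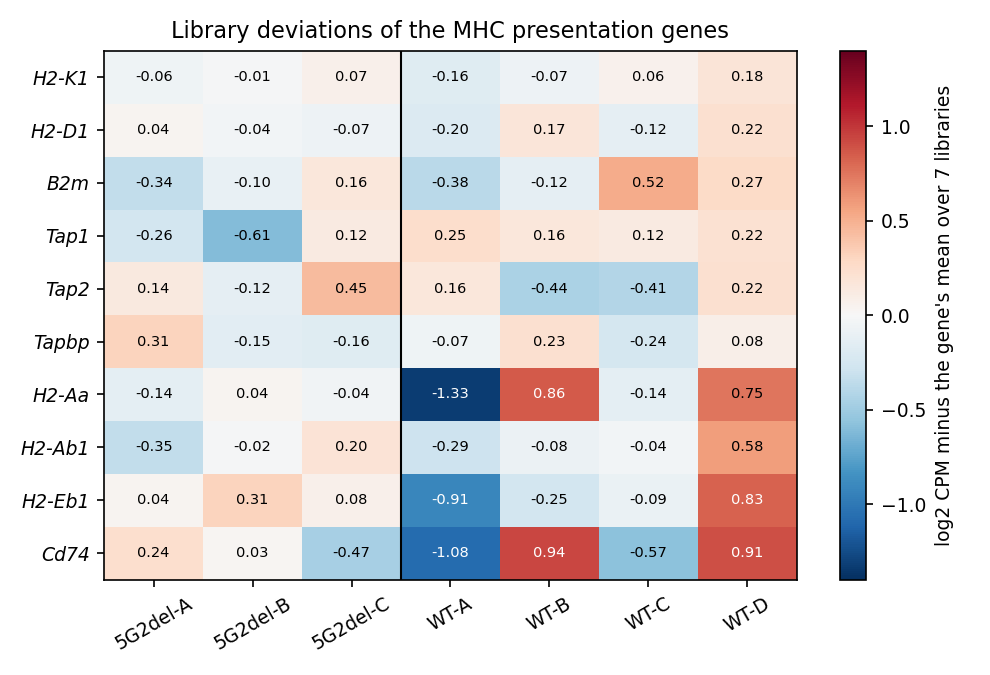
Each cell gives a library's log2 CPM minus the gene's mean over the 7 libraries, genes in rows and libraries in columns, 5G2del left of the line and WT right of it. H2-Aa and Cd74 are low in WT-A (-1.33 and -1.08) and high in WT-B (0.86 and 0.94) and WT-D (0.75 and 0.91), whereas the 5G2del libraries stay within 0.61 of the mean for every member.

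Across the 7 libraries, which share a table-wide scaling and 2 genotypes, 3 of the 4 closest pairs of members crossed the classes. Given as descriptions, Pearson's r was 0.983 between H2-D1 and Cd74 (Spearman's rho 0.964), 0.910 between H2-Aa and Cd74 (rho 0.893), 0.892 between H2-K1 and H2-Ab1 (rho 0.857) and 0.888 between H2-D1 and H2-Aa (rho 0.857). The heavy chains H2-K1 and H2-D1 had r of 0.439, and the chain pair H2-Aa and H2-Ab1 of 0.585. Tap1 had r with the other members from -0.280 with H2-Eb1 to 0.291 with B2m. The genes outside the 10 whose levels followed H2-K1 most closely, among 10348 with a mean log2 CPM over 2, were Tmem42 (r = 0.997), Hddc3 (r = 0.988), Cox16 (r = 0.972), Pex16 (r = 0.970) and D8Ertd738e (r = 0.967). Those closest to H2-Ab1 were Hnrnpdl (r = 0.972), Plag1 (r = 0.968), Phf7 (r = 0.959), Dclk2 (r = 0.953) and Acad8 (r = 0.945). With 7 libraries, 28 genes exceeded r of 0.9 with H2-K1 and 14 with H2-Ab1.

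The class II levels were set beside markers of the cells known for class II. Of the markers listed for B lineage, dendritic and monocyte or macrophage cells 22 were in the table, of which 1, 3 and 2 were at 0 counts in 5G2del-A to 5G2del-C and 0, 9, 0 and 2 in WT-A to WT-D. WT-B, the library with the most H2-Aa (94.8 CPM) and Cd74 (53.9 CPM), had 0 counts of Ebf1, Itgax, Csf1r and Ccr7. It also had the highest log2 CPM of all 7 libraries for the macrophage markers Cd68 (4.02), Mrc1 (2.01), Cd163 (1.73) and C1qb (0.34), named after their values were seen. Other markers of that list were low in WT-B, with C1qa at 0 counts like Csf1r and Ccr2 at 1. The mean log2 CPM of the 8 measured monocyte and macrophage markers was -1.24 in WT-B, the lowest of all 7 libraries. Summed B lineage markers ran from 61.2 to 569 CPM in 5G2del and from 33.6 to 140 CPM in WT, dendritic cell markers from 5.29 to 22.6 CPM in 5G2del and from 8.48 to 23.4 CPM in WT, and monocyte and macrophage markers from 15.4 to 102 CPM in 5G2del and from 16.6 to 50.9 CPM in WT. WT-A, the library with the least H2-Aa and Cd74, had the highest dendritic cell sum of all libraries and the highest B lineage, monocyte and macrophage sums of the WT libraries. Its monocyte and macrophage sum included Ly6c2, at 4.75 log2 CPM in WT-A and -0.49 or less in the other WT libraries. The immunoglobulin genes Igkc (6.83 ± 2.07) and Jchain (4.53 ± 1.29) had positive log2 fold changes at an unadjusted p under 0.05, high in 5G2del-A and 5G2del-C, where H2-Aa was at 47.6 and 50.8 CPM. They were 2 of 8 measured B lineage markers, against 3.91% of all genes (1.68% higher). Igkc had 3 counts in WT-C and 0 in WT-D and Jchain 2 in WT-D, so the sizes of these fold changes depend on the 0.5 counts that the scale adds before the log. The most abundant markers were Ighm, Ccr9 and Cd68 for these cell types. Summed neutrophil markers, led by S100a9, ran from 14.5 to 1358 CPM in 5G2del and from 3.91 to 363 CPM in WT. Erythroid markers, led by Hbb-bt, ran from 63.7 to 169 CPM in 5G2del and from 109 to 348 CPM in WT, and endothelial and stromal markers, led by Pecam1, from 40.9 to 64.9 CPM in 5G2del and from 40.9 to 70.9 CPM in WT. The list of T and NK cells, led by Nkg7, ran from 54.5 to 89.2 CPM in 5G2del and from 29.9 to 55.6 CPM in WT. Of its 6 measured genes, 2 had an unadjusted limma p under 0.05, against 3.91% of all genes. These were Nkg7 (1.16 ± 0.49) and Il2rb, with 0, 0 and 2 counts in 5G2del and 33, 21, 5 and 11 in WT. Groups did not overlap in 4 of the 6, against 5.70% of all genes. Nkg7 and Trbc2 were higher in 5G2del, and Lck and Il2rb were lower. The part of such cells in the class II values was not tested.

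Genes that work beside class II were also compared. Of 5 measured class II chain and editor genes 4 were higher in 5G2del (2 without WT-B), against 53.3% of all genes. The median log2 fold change of the 5 was 0.27, and 0 of the 5 passed either threshold. Without WT-D, 2 of the 5 had an unadjusted limma p under 0.05, where 3.91% of all genes had one with all 7 libraries. H2-DMa, whose product with that of H2-DMb1 edits the peptide in the groove, was at 6.58, 6.52 and 7.06 log2 CPM in 5G2del and 6.15, 6.13, 6.50 and 7.01 in WT (0.27 ± 0.23), and H2-DMb1 had a log2 fold change of 0.50 ± 0.29. Leaving out a library moved the log2 fold change of H2-DMa to 0.10 without 5G2del-C, 0.17 without WT-A or WT-B and 0.46 without WT-D, and that of H2-DMb1 to 0.32 without WT-B. Endosomal processing genes were higher in 6 of 10 (5 without WT-B), where 53.3% of all genes were higher, and had a median of 0.12, with 0 at an unadjusted p under 0.05. Ctss, the protease that trims the invariant chain, had a log2 fold change of -0.17 ± 0.35, and 0.15 without 5G2del-B.

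Several regulators of these genes were lower in mean in 5G2del. Nlrc5, the class I transactivator, was at 4.78, 4.54 and 4.62 log2 CPM in 5G2del, against 5.06, 5.22, 5.04 and 5.28 in WT. The highest 5G2del library lay under the lowest WT one, and the log2 fold change was -0.51 ± 0.17 (limma unadjusted p = 0.0130, adjusted p = 0.989), between -0.57 and -0.45 with 1 library left out. Its unadjusted p was 0.0521 without 5G2del-B. Irf2, an interferon regulatory factor that binds class I promoters, had a log2 fold change of -0.35 ± 0.16, and Rfx5, the DNA-binding subunit of the complex on the X box, had -0.31 ± 0.16 (limma unadjusted p = 0.0762). The unadjusted p of Irf2 was 0.05 or above in 6 of the 7 fits with 1 library left out, all but that without WT-B, and without the trend, with quantile normalization and with the filter on low genes. For these 3 genes the groups did not overlap, against 5.70% of all genes. Rfx5 falls outside the rule for named genes and was added after its values were seen.

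Ciita, the class II transactivator, was at 2.03, 2.05 and 2.93 log2 CPM in 5G2del, against 3.06, 3.47, 2.28 and 2.75 in WT, with overlap and a log2 fold change of -0.56 ± 0.38 (-0.85 without 5G2del-C, -0.36 without WT-B). WT-B had the most Ciita and also the most H2-Aa, but WT-A, with the next highest Ciita, had the least. Over the whole list of regulators, 20 of 20 were measured, 9 were higher and 11 lower in 5G2del, 0 passed the adjusted threshold, 3 had an unadjusted p under 0.05, all lower (2.24% of all genes; 0 without 5G2del-B, 1 without WT-C, WT-D or the trend), and the median log2 fold change was -0.10. The NF-Y subunit genes Nfya, Nfyb and Nfyc had log2 fold changes of 0.16, 0.29 and 0.21, and were likewise added for the CCAAT matches after their values were seen.

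The list of interferon receptor and signalling genes, which also holds the inhibitors Socs1, Socs3 and Ptpn2, was lower in mean in 9 of 10. This compares with 46.7% of all genes, and the list's median was -0.18. The count includes Socs3, at -0.0019, and Socs1, at -1.01 on 10 to 111 expected counts per library, so it does not measure signalling input. Jak2, a kinase of the interferon gamma receptor, was the 1 with an unadjusted p under 0.05, at 5.34, 5.10 and 5.37 log2 CPM in 5G2del and 5.90, 5.38, 5.79 and 5.72 in WT (-0.43 ± 0.18), with 5G2del-C just under WT-B. Its unadjusted p was 0.05 or above without 5G2del-A, 5G2del-B, WT-A, WT-C or WT-D and without the trend. Its groups overlapped with median centring and quantile normalization. Over all genes, 3.91% had an unadjusted limma p under 0.05, and 5.70% had groups without overlap. Of 28 interferon-induced genes 28 were lower in 5G2del, against 46.7% of all genes, and their median log2 fold change was -0.60. Of the 28, 13 had an unadjusted limma p under 0.05, all lower, against 2.24% of all genes. This list was drawn up with the values of its genes already known. With 1 library left out, between 26 and 28 were lower, and 5 (without 5G2del-B) to 17 (without WT-B) had an unadjusted p under 0.05. This count was 7 without 5G2del-A, WT-C or WT-D, and 5 without the trend. Their mean log2 CPM was 3.95, 3.75 and 4.45 in 5G2del, against 4.36, 4.40, 5.14 and 4.99 in WT. Among the 13 were the antiviral genes Ifit1, Ifit3, Oas2, Oas3, Ifi44 and Cmpk2, and the interferon-inducible GTPase genes Gbp6 (-1.51 ± 0.54), Tgtp1 (-0.63 ± 0.20), Tgtp2, Irgm1, Iigp1 and Ifi47. H2-K1 and H2-D1, also interferon-induced genes in textbook accounts, lay at -0.0028 and -0.04 in the same libraries. Of the other class I members, Tap1 lay at -0.44, B2m at -0.17, Tapbp at -0.00058 and Tap2 at 0.27. Whether the lists differ was not tested.

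Of 5 measured costimulation genes 4 were lower in mean (46.7% of all genes) and 1 higher, with a median log2 fold change of -0.30. Cd86, a ligand of CD28 on T cells, was at 1.39, 1.88 and 2.18 log2 CPM in 5G2del, against 2.85, 3.38, 3.03 and 2.97 in WT. The groups were apart by 0.67 log2 units, and the log2 fold change was -1.24 ± 0.32 (limma unadjusted p = 0.00285, adjusted p = 0.989), between -1.42 and -1.03 with 1 library left out.

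**Figure D5:**
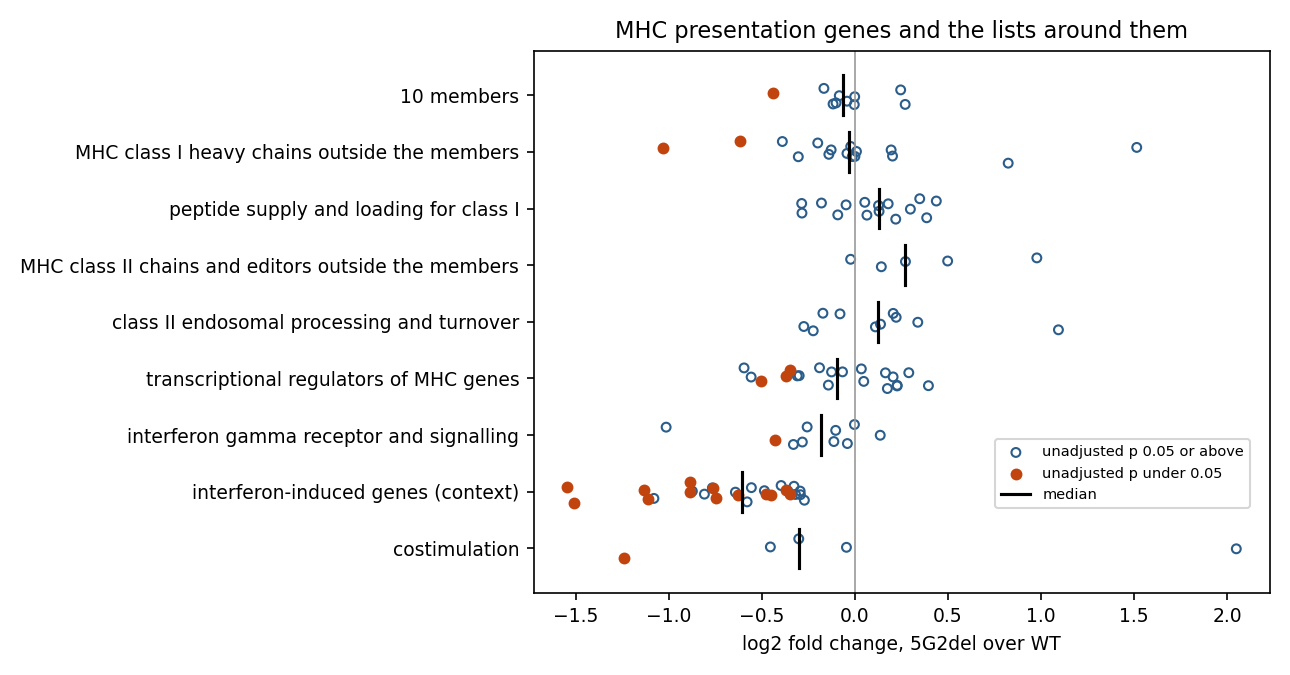
Log2 fold change, 5G2del over WT, of the 10 members and of the genes in each list around them (points; filled where the unadjusted limma p is under 0.05), with the list's median (line). The members and the class I and class II lists have medians from -0.06 to 0.27, and the interferon-induced genes one of -0.60. Between them lie the regulators (-0.10), the interferon receptor and signalling genes (-0.18) and the costimulation genes (-0.30). The interferon-induced list was drawn up with the values of its genes already known.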

How the data were processed

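Per the labels' protocols, libraries were made from total RNA with an Ovation kit and read from both ends. The submitters' processing notes name STAR 2.7.9a, limma 3.50.3 and RSEM 1.3.0, with the builds mm10 and GRCh38. Annotation, filter and scaling are not given there. The authors deposited log2 CPM per library for 16760 genes, with their own log2 fold changes, p-values and moderated t score. The steps of the log2 values give back expected counts with an offset of 0.5, of which 70.0% to 73.4% per library were whole within 0.01, so no count model was used; a voom fit to them differed from the deposited log2 fold changes by at most 1.37e-08. The table's columns show the genotype only. 5G2del and WT were compared with limma-trend (limma 3.58.1, R 4.3.3), all 7 libraries, no covariate and Benjamini-Hochberg adjustment over all genes; the fit was tested on simulated data. Fold changes are 5G2del over WT, and ± after one is its standard error. Positions and exon lengths are from GENCODE M21 (mm10), promoters from RefSeq (GRCm38.p6), and alignments from Biopython 1.88. The letters of the core for interferon regulatory factors were chosen after the promoters were seen. Members, gene lists and the rule for named genes (all members, 8 preset pathway genes, list genes with an unadjusted p under 0.05, the 5 genes closest to H2-K1 and H2-Ab1, and the most abundant gene of each marker list) were chosen with earlier results of these data known. Alternatives were another prior, 2 other scalings, log2(CPM + 1), a filter at a mean log2 CPM of 1, the voom fit and leaving out each library. Some genes of the lists are counted in them but not reported here by name.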

Additional observations from a re-analysis of the deposited data

Results flagged for a closer look

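Among 48 values examined in WT, 1 had a library far from the other 3: S100a9, a neutrophil alarmin in the marker list, was at 6.67 log2 CPM in WT-A, against 0.85 to 1.56 in WT-B to WT-D. Chance flags about 1 in 20 such groups. In 5G2del it was at 8.86 in 5G2del-A and 2.46 and 2.48 in the other two. WT-A was also the WT library with the least H2-Aa, H2-Eb1 and Cd74, and the part of these cells in the class II values was not tested.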

How the results depend on the processing

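Over 130 values of the 10 members under the alternatives, 19 turned in sign, and 0 passed an adjusted p of 0.05 (limma adjusted p from 0.833 to 1.00). All but 1 of these turns came from leaving out a library: the log2 fold changes then ran from -0.058 to 0.057 for H2-K1, -0.11 to 0.027 for H2-D1, -0.16 to 0.081 for Tapbp, -0.54 to 0.19 for H2-Aa, -0.23 to 0.079 for H2-Ab1, -0.021 to 0.56 for H2-Eb1 and -0.49 to 0.18 for Cd74, and beyond the members from -0.12 to 0.22 for Psmb9 and -0.40 to 0.15 for Ctss. Tapbp turned with quantile normalization, to 0.0094. Tap1 stayed negative in every setting, between -0.62 and -0.26 with 1 library left out, with an unadjusted p from 0.00694 to 0.194; the members with an unadjusted p under 0.05 numbered 0 to 1 then, and 0 without the trend. The groups of Tap1 overlapped with libraries centred on their median. Members higher in 5G2del numbered 1 to 8 with 1 library left out. Over all genes, limma without the trend called 1, Sfrp5, and leaving out a library called 0 to 1, the 1 being Thbs1 without 5G2del-C. The causes were not tested. No paired analysis was possible because the columns of the table carry no replicate numbers. With 3 and 4 libraries, the 95% intervals of the members span 0.65 to 2.00 log2 units, so changes inside them could not be seen.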
